A study of Mus musculus with 12 samples.

Results

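The 56 genes described here build, move or switch on motile cilia. They were taken by name, as motile cilium and axoneme genes, with no measured value in the rule, although the list was drawn up with earlier results of these data known. All 56 were found among the 48709 genes counted in every library. By role they comprise 14 dynein arm genes, 5 radial spoke genes, 32 other axoneme genes and 5 regulators of the ciliary gene programme. The RNA came from primary hippocampal cultures of E17 CD1 mouse embryos, a preparation that pools the hippocampi of several embryos, per the study's methods. The study describes its hippocampal cultures as a mix of neurons and glia. At day 10 in vitro, lipid nanoparticles delivered either a synthetic mimic of the microRNA miR-148a-3p (6 libraries, mimic) or a negative control oligonucleotide (6 libraries, control). The methods also name ApoE4 as added to cultures for RNA-seq, in wording that covers both groups, and the labels do not mention it. Cells were harvested at day 12, 48 h later, and polyA RNA was sequenced, which does not measure the mature microRNA itself. The labels do not state whether the 6 libraries of a group came from separate preparations, so the tests measure the spread between these libraries.

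Motile cilia beat by means of an axoneme, a ring of doublet microtubules around a central pair. Inner and outer dynein arms on the doublets generate the sliding force, radial spokes link the doublets to the central pair, and further proteins set the spacing, tether the arms or line the inside of the doublets. In the brain such cilia are borne by ependymal cells, which move cerebrospinal fluid, and related cilia by the choroid plexus epithelium, whereas neurons and astrocytes carry a single primary cilium that lacks most of this machinery. The labelled cell type is hippocampal neurons. Over all 12 libraries, 15 neuron markers summed to 8751 to 9726 CPM and 12 astrocyte markers to 5807 to 7644 CPM. Here CPM is the count scaled to each library's total after TMM normalisation.

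A microRNA recognises transcripts mainly through its seed, bases 2 to 8. The 2 oligonucleotides are shown because they define the 2 groups, with the seed in capitals. The mature strand, encoded at chr6:51269829-51269850 on the minus strand (RefSeq, GRCm38.p6), was identical to the mimic in the reagent list of the study. For the control, named a negative control siRNA in the GEO record, the listed sequence is shown on the assumption that these cultures received it.
miR-148a-3p: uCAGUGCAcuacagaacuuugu
negative control: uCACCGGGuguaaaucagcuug

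Few transcripts of motile cilium genes carried a match to that seed. In the longest annotated 3′UTR of each gene (GENCODE M21, mm10), a match to the seed, or to its first 6 bases with an A after it, was present in 5 of the 56 genes (8.93%) and in 3307 of 15082 tested genes with a 3′UTR (21.93%). These 3′UTRs were short, with a median of 314 bases against 1173 bases over all tested genes, and the part of length in the share was not tested. Only 2 of the 37 genes that were lower in mimic by the test described further on had a site, namely Cfap69 and Iqcg, and the other 3 genes with a site, Dnah3, Spag16 and Stk33, were not called. The 2 sites in called genes are shown with the seed match in capitals, Cfap69 at chr5:5579874-5579903 and Iqcg at chr16:33014869-33014897, both on the minus strand.
Cfap69 site: aaatacagcaaTGCACTGAcctcaaaggga
Iqcg site: gcccaacagaaGCACTGAcctgctgtgtg

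The library totals ranged from 20018234 to 37149112 counts in control and from 28316456 to 33808253 in mimic (exact permutation test, two-sided, p = 0.515). Control replicate 1 was the shallowest library and stood apart from the others. It was the lowest of the 6 control libraries for 31 of the 56 genes, and over all tested genes it was the lowest for 30.4% and the highest for 32.2%. For genes described in full whose overlap or call rests on this library, the values without it are given as well.

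Motile cilium genes were expressed at low to moderate levels in these cultures. Per length, as CPM per kilobase of exon (RPKM), the control means ran from 0.188 for Spag17 to 22.6 for Foxj1, with a median of 1.89 against 3.17 over all tested genes. All 56 genes passed the filter of at least 5 counts in at least 6 libraries, with mean counts from 13.1 for Mcidas to 4682 for Rfx3. In bulk RNA, fewer ciliated cells and less RNA per ciliated cell cannot be told apart.

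Transcripts of most motile cilium genes were lower in the mimic libraries. Among the 56 genes, 37 (66.1%) were called lower and 0 higher by the edgeR quasi-likelihood test at an adjusted p under 0.05, where the shares over all 18847 tested genes were 10.7% lower and 11.5% higher. No gene of the list was higher at an unadjusted p under 0.05 either (0 genes), nor by the DESeq2 Wald test (0 genes). The estimate was below 0 for 55 of the 56 genes, with Ccdc153 as the exception. The list had a median log2 fold change of -0.31, and all tested genes had one of -0.01. Among genes with a mean of at least 50 counts, 37 of 50 list members (74.0%) were called lower, where 13.2% of all such genes were.

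The decreases were modest. Genes called lower fell by between 11.5% (Drc1) and 31.1% (Cfap70). Every mimic library lay below every control library for 15 of the 56 genes, where this held for 5.83% of all tested genes. The median log2 ratio of the 56 genes to the control mean was negative in 6 of 6 mimic libraries, from -0.46 in replicate 6 to -0.18 in replicate 5. When the test required a change of more than 1.2-fold, 7 of the 56 genes (12.5%) were called lower, beside 1.87% of all tested genes. They were Dnah7b, Cfap45, Cfap46, Cfap52, Cfap70, Tekt1 and Tppp3.

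**Figure D1:**
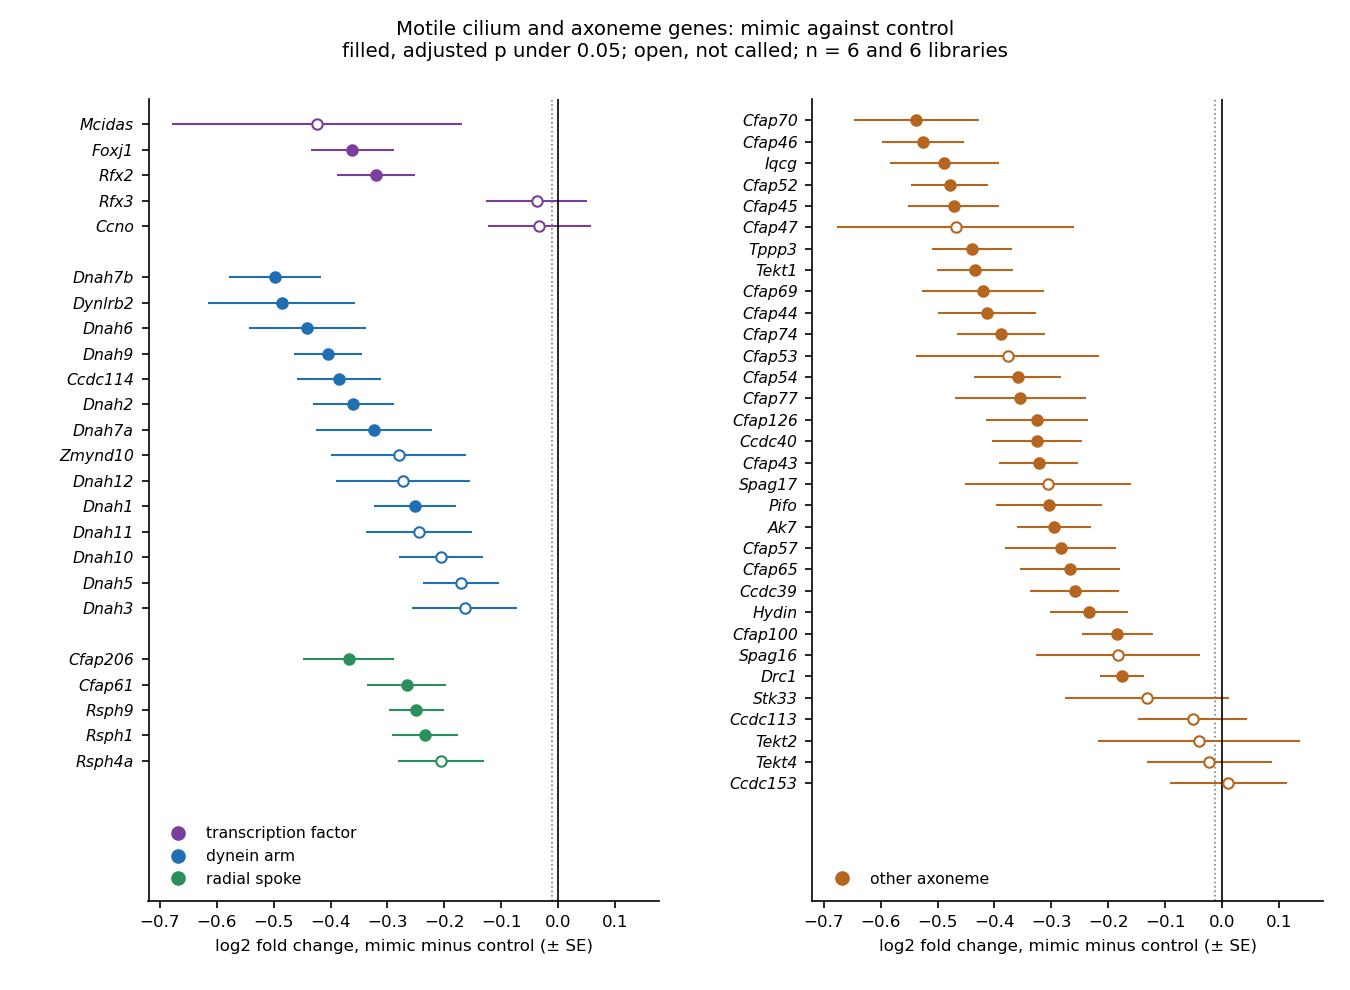
Log2 fold change of each of the 56 genes, mimic minus control, with its standard error (edgeR, 6 and 6 libraries), ordered within each role. Filled points have an adjusted p under 0.05, the dotted line is the median of all tested genes (-0.01), and 55 of the 56 points lie to the left of 0.

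The test called 2 of the 5 regulators lower (40.0%), beside 10.7% of all tested genes. Foxj1, the forkhead factor that drives the motile cilium programme, and Rfx2, a factor that binds X-box elements of ciliary genes, were lower, whereas Rfx3, Mcidas and Ccno were not called. Foxj1 (chr11:116330704-116335399) measured 55.8, 58.1 and 66.5 CPM as the lowest, median and highest of the control libraries, against 39.6, 44.5 and 53.9 CPM in mimic. The groups did not overlap, and Foxj1 was 0.36 lower on the log2 scale (log2 fold change -0.36 ± 0.07 SE, adjusted p = 0.0015). It was also the most abundant gene of the list per length, at a mean of 22.6 RPKM in control and 17.6 RPKM in mimic.

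Rfx2 measured 9.91, 10.5 and 11.6 CPM in control and 7.51, 8.53 and 10.01 CPM in mimic. A single mimic library reached into the control range, and the log2 fold change was -0.32 ± 0.07 (adjusted p = 0.00235). Rfx3, a related factor that acts in both primary and motile cilia, was the most counted gene of the list and spread widely in control, from 125 to 184 CPM with a median of 161, around the 136 to 168 CPM of mimic (median 155). Its log2 fold change was -0.04 ± 0.09 (adjusted p = 0.821). Leaving out control replicate 1, its lowest library, gave -0.10, while leaving out control replicate 5 gave 0.01, and these were the lowest and highest values over the 12 libraries left out in turn. The sign turned when control replicate 4 or 5 was left out.

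Mcidas, the co-regulator that starts multiciliated cell differentiation, was close to the limit of these libraries, at 0.253, 0.499 and 0.680 CPM in control and 0.219, 0.340 and 0.573 CPM in mimic. The groups overlapped, and at a mean of 13.1 counts a log2 fold change of -0.42 ± 0.25 was not resolved (adjusted p = 0.273). Ccno, a cyclin-like protein needed to amplify centrioles in multiciliated cells, measured 4.93, 6.00 and 6.92 CPM in control and 5.06, 5.76 and 6.30 CPM in mimic. Its groups overlapped and the log2 fold change was -0.03 ± 0.09 (adjusted p = 0.847), with its sign turned without control replicate 1 (log2 fold change 0.01). Among the RFX factors outside the list, Rfx4 (log2 fold change 0.12, adjusted p = 0.0184) and Rfx5 (0.14, adjusted p = 0.013) were called higher, and Rfx1 and Rfx7 were not called.

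**Figure D2:**
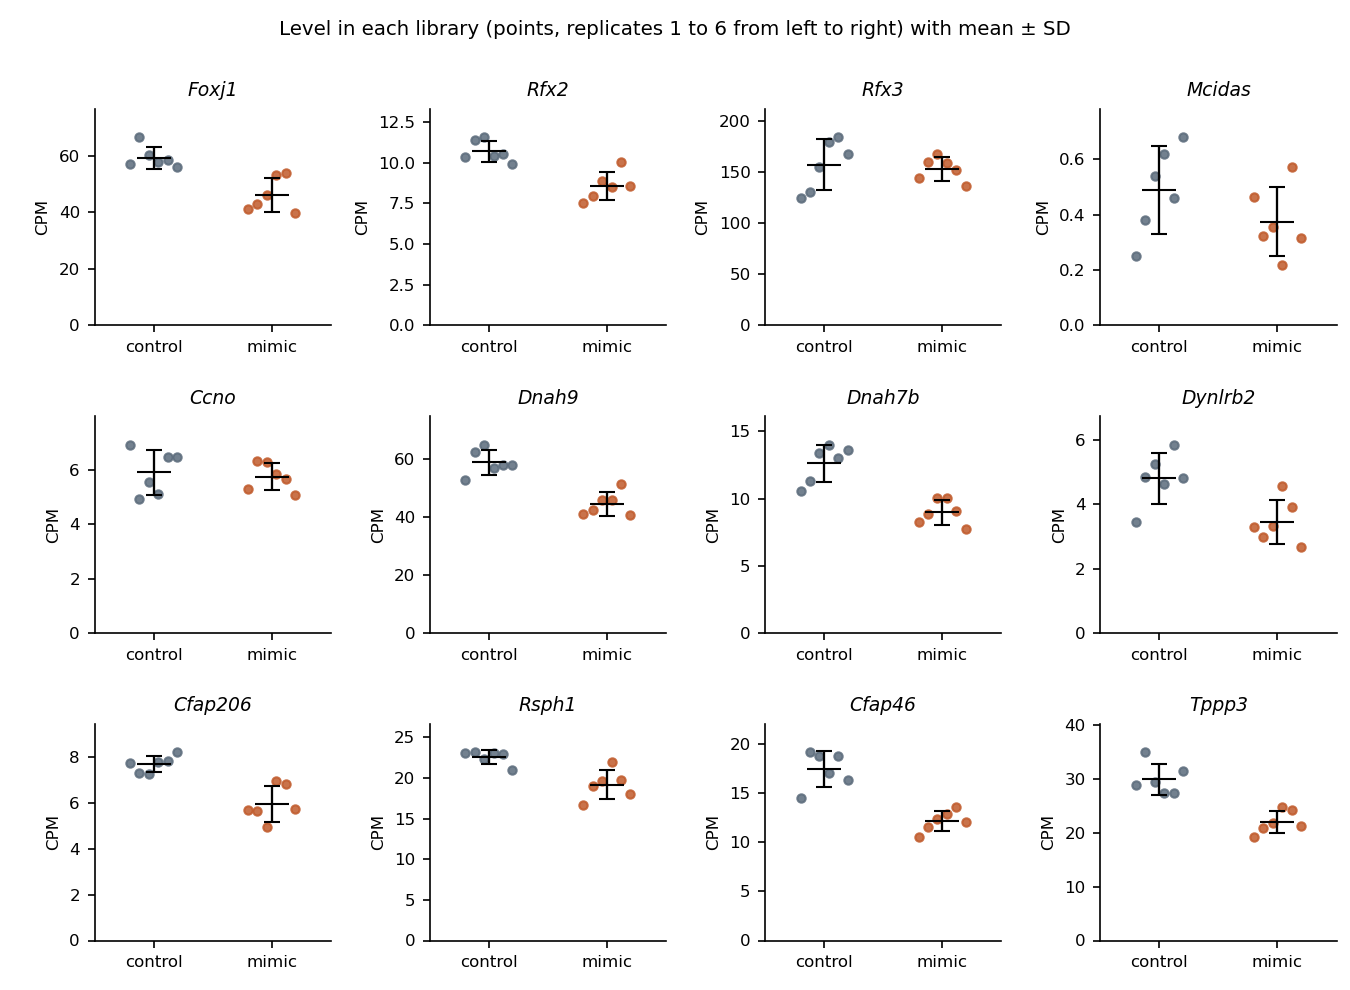
Level in CPM of the 5 regulators and of 7 dynein arm, radial spoke and other axoneme genes in each library, replicates 1 to 6 from left to right, with the mean and SD per group (n = 6). Foxj1, Dnah9, Dnah7b, Cfap206, Cfap46 and Tppp3 show no overlap between groups, whereas Rfx2, Rfx3, Mcidas, Ccno, Dynlrb2 and Rsph1 overlap.

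Dynein arm genes of both the inner and the outer arm were among those called lower. The test called 8 of the 14 genes lower (57.1%) and 0 higher, beside 10.7% and 11.5% of all tested genes. The median log2 fold change was -0.30, and all 14 estimates were negative, from -0.50 to -0.16. Of the inner arm heavy chains 5 of 8 were called lower, and of the outer arm heavy chains 1 of 3. Summed over the 14 genes, the control libraries measured 184, 213 and 230 CPM (lowest, median, highest) and the mimic libraries 151, 166 and 182 CPM, without overlap.

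Dnah9, a heavy chain of the outer arm, was the dynein gene with the smallest adjusted p. It measured 52.8, 58.0 and 65.0 CPM in control and 40.9, 44.0 and 51.5 CPM in mimic. The groups did not overlap, and the log2 fold change was -0.40 ± 0.06 (adjusted p = 8.16e-05). The other outer arm heavy chains, Dnah11 (-0.24, adjusted p = 0.073) and Dnah5 (-0.17, adjusted p = 0.0781), missed the threshold and passed it without control replicate 1 (adjusted p = 0.0321 and 0.00711). Dnah11 also passed without mimic replicate 4 (adjusted p = 0.0265) and with the replicate number as a block (adjusted p = 0.0314). Dnah5 also passed without mimic replicate 3 (adjusted p = 0.0498). Ccdc114, part of the docking complex that fixes the outer arm to the doublet, measured 11.5, 13.4 and 15.5 CPM in control and 9.14, 10.4 and 11.5 CPM in mimic. Its ranges only touched at their ends, and the log2 fold change was -0.39 ± 0.07 (adjusted p = 0.00088).

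Dnah7b, an inner arm heavy chain, had the largest decrease of this role. It measured 10.6, 13.2 and 14.02 CPM in control and 7.73, 8.96 and 10.04 CPM in mimic, without overlap, for a log2 fold change of -0.50 ± 0.08 (adjusted p = 0.0002). Of all 50-base windows of its transcript, the length of these reads, 48.4% also occur in other genes, mostly its near copy Dnah7c, and 40.3% of those of Dnah7a occur in others such as Dnah7b, so the values of Dnah7b and Dnah7a (log2 fold change -0.32, adjusted p = 0.0299) are uncertain where reads could be lost or split.

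Dnah6, another inner arm heavy chain, measured 16.2, 23.8 and 26.0 CPM in control and 13.99, 17.04 and 19.8 CPM in mimic. Only control replicate 1, at 16.2 CPM, lay within the mimic range, and the log2 fold change was -0.44 ± 0.10 (adjusted p = 0.00519), and -0.52 without that library. Dynlrb2, a roadblock-type light chain and the dynein gene with the highest level per length (8.63 RPKM in control), measured 3.43, 4.82 and 5.84 CPM in control and 2.67, 3.30 and 4.57 CPM in mimic. Again the ranges overlapped through control replicate 1 alone, and the log2 fold change was -0.49 ± 0.13 (adjusted p = 0.011), and -0.55 without it (adjusted p = 0.000826). Dnah2 (-0.36, adjusted p = 0.00114) and Dnah1 (-0.25, adjusted p = 0.0181) were also called lower. The remaining inner arm heavy chains were not called, with log2 fold changes of -0.27 for Dnah12, -0.21 for Dnah10 and -0.16 for Dnah3, and neither was Zmynd10, a cytoplasmic factor for assembling the arms, at -0.28 (adjusted p = 0.108). Except for Dnah3, these calls moved with single libraries or with the filter. Dnah12 was called lower without control replicate 1 (-0.36, adjusted p = 0.00215). Dnah10 was called lower without control replicate 4 (-0.26, adjusted p = 0.0106) or with a filter of at least 50 mean counts (adjusted p = 0.0343). Zmynd10 was called lower without control replicate 4 (-0.38, adjusted p = 0.00946) or 5 (-0.34, adjusted p = 0.0463).

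Radial spoke genes were lower in most cases. The test called 4 of these 5 genes lower (80.0%) and 0 higher, beside 10.7% and 11.5% of all tested genes. The median log2 fold change was -0.25, with estimates from -0.37 to -0.21. Their sum was 80.2, 85.2 and 87.1 CPM in control and 67.0, 71.8 and 77.6 CPM in mimic, without overlap. Cfap206 and Cfap61, proteins at or near the base of the spokes, did not overlap between groups.

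Cfap206 measured 7.25, 7.75 and 8.20 CPM in control and 4.94, 5.69 and 6.94 CPM in mimic (log2 fold change -0.37 ± 0.08, adjusted p = 0.00247). Cfap61 measured 7.18, 7.59 and 8.19 CPM in control and 5.17, 6.56 and 6.82 CPM in mimic (-0.27 ± 0.07, adjusted p = 0.00988). Both genes thus separated the groups at fewer than 10 CPM. Rsph1, a spoke head protein and the spoke gene with the highest level per length (16.5 RPKM in control), measured 20.97, 22.95 and 23.2 CPM in control and 16.7, 19.3 and 22.0 CPM in mimic (-0.23 ± 0.06, adjusted p = 0.00632). One mimic library lay within the control range. The other spoke head genes were Rsph9 (-0.25, adjusted p = 0.00107, no overlap) and Rsph4a (-0.21, adjusted p = 0.0605), and Rsph4a passed the threshold without control replicate 1 (adjusted p = 0.00182). Rsph4a also passed without control replicate 2 (adjusted p = 0.0426) and with the replicate number as a block (adjusted p = 0.045).

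**Figure D3:**
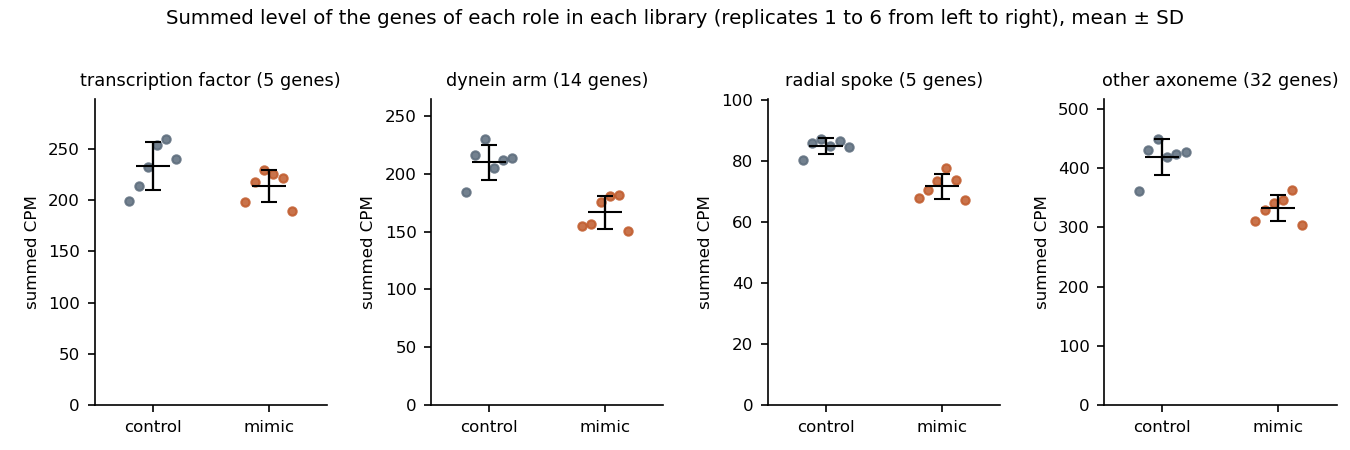
Summed CPM of the genes of each role in each library, replicates 1 to 6 from left to right, with the mean and SD per group (n = 6). The dynein arm and radial spoke sums do not overlap between groups, the other axoneme sums of control replicate 1 (362) and mimic replicate 5 (363) cross, and the regulator sums, most of which is Rfx3, overlap.

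The other axoneme genes included the largest decreases of the list. Of 32 genes, 23 were called lower (71.9%) and 0 higher, beside 10.7% and 11.5% of all tested genes. The median log2 fold change was -0.32, with estimates from -0.54 to 0.01. Their sum was 362, 426 and 450 CPM in control and 305, 335 and 363 CPM in mimic, and the groups overlapped through control replicate 1 alone, since the next control library measured 419 CPM. Genes of the central pair (6 of 9), of the doublet lumen (5 of 8), of the inner arm tether and its regulation (4 of 4), of the ruler proteins Ccdc39 and Ccdc40 that set the spacing along the doublet (2 of 2) and of the nexin-dynein regulatory complex (2 of 3) were called lower. Some of these calls were lost in at least 1 alternative. They were Cfap65, Cfap69 and Hydin (central pair), Cfap77 (lumen), Cfap57 and Cfap100 (tether) and Ccdc39 (ruler).

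Among central pair genes, Cfap46 had the smallest adjusted p of all 56 genes. It measured 14.4, 17.9 and 19.1 CPM in control and 10.6, 12.2 and 13.6 CPM in mimic. No mimic library reached the lowest control library, and the log2 fold change was -0.53 ± 0.07 (adjusted p = 4.06e-05). Cfap69, which carries a seed site, measured 14.2, 21.9 and 24.1 CPM in control and 13.6, 16.1 and 17.5 CPM in mimic, with control replicate 1 as the only control library within the mimic range (-0.42 ± 0.11, adjusted p = 0.00944). Without that library the log2 fold change of Cfap69 was -0.50 (adjusted p = 2.85e-05). Cfap74 (-0.39), Cfap54 (-0.36), Cfap65 (-0.27) and Hydin (-0.23), the last a very large protein of the central pair projections, were also called lower. Cfap47 (counted as Gm7173, -0.47, adjusted p = 0.13), Spag17 (-0.31, adjusted p = 0.156) and Spag16 (-0.18, adjusted p = 0.423) were not. Cfap47 was far lower in control replicate 1, where it measured 1.46 CPM against a control median of 4.56 CPM, and without that library it was called lower (-0.61, adjusted p = 0.00125).

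The proteins that line the doublet lumen were represented by Cfap52, Cfap45 and Tekt1, the last a tektin, among the largest decreases. Cfap52 measured 8.79, 9.51 and 10.96 CPM in control and 6.32, 6.83 and 7.59 CPM in mimic (-0.48 ± 0.07, adjusted p = 4.83e-05). Cfap45 measured 6.97, 8.11 and 8.57 CPM in control and 4.94, 5.84 and 6.81 CPM in mimic (-0.47 ± 0.08, adjusted p = 0.000309). Tekt1 measured 7.47, 8.40 and 8.62 CPM in control and 5.20, 6.11 and 6.81 CPM in mimic (-0.43 ± 0.07, adjusted p = 0.000111). None of these 3 genes overlapped between groups. Cfap77 (-0.35) and Cfap126 (-0.33) were called lower too, while Cfap53 (-0.38, adjusted p = 0.108), Tekt2 (-0.04, adjusted p = 0.909) and Tekt4 (-0.02, adjusted p = 0.92) were not. The 2 latter tektins were scarce, at mean counts of 26.4 and 61.3, against 215 for Tekt1.

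Tppp3, a tubulin polymerisation protein abundant in ciliated cells, had the highest level per length of this role (16.2 RPKM in control and 11.9 RPKM in mimic). It measured 27.3, 29.1 and 34.9 CPM in control and 19.2, 21.5 and 24.7 CPM in mimic, without overlap, for a log2 fold change of -0.44 ± 0.07 (adjusted p = 0.000162). Cfap70 had the largest decrease of all 56 genes, at 3.84, 5.28 and 6.04 CPM in control and 3.08, 3.41 and 4.32 CPM in mimic (-0.54 ± 0.11, adjusted p = 0.00152). The ranges of Cfap70 overlapped through control replicate 1 alone, and without it the log2 fold change was -0.60 (adjusted p = 5.78e-05). Iqcg, a subunit of the nexin-dynein regulatory complex that links neighbouring doublets, measured 14.2, 20.04 and 21.7 CPM in control and 11.4, 13.6 and 16.8 CPM in mimic (-0.49 ± 0.10, adjusted p = 0.00122), and the log2 fold change was -0.56 without control replicate 1, the only control library within the mimic range. Of its exon bases, 48.1% lie opposite exons of Lrch3, a gene with a mean of 1696 counts, and since the sources used here name no strand setting for the counting, the value of Iqcg is uncertain.

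Drc1, a core subunit of the same complex, showed a small but separated difference (-0.18 ± 0.04, adjusted p = 0.00315), with all mimic libraries below all control libraries. The inner arm tether genes Cfap44 (-0.41) and Cfap43 (-0.32) and the related Cfap57 (-0.28) and Cfap100 (-0.18) were called lower, as were Ccdc40 (-0.33) and Ccdc39 (-0.26). Cfap57 lost its call with the DESeq2 Wald test (adjusted p = 0.0527) and with the replicate number as a block (adjusted p = 0.0995). With that block Cfap100 lost its call too (adjusted p = 0.0598). Ccdc39 lost its call without control replicate 3 (adjusted p = 0.0544), among other alternatives. Ccdc39 shares 16.9% of its exon bases with Ttc14 on the opposite strand, a gene with a mean of 4497 counts. Pifo, a protein linked to disassembly of the primary cilium (-0.30), and Ak7, an adenylate kinase (-0.29), were called lower, and Stk33 (-0.13), Ccdc113 (-0.05) and Ccdc153 (0.01) were not called.

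Genes called lower had more reads than the rest, with a median of 364 mean counts against 103 for the 19 genes not called, and 8 of those 19 genes had an unadjusted p under 0.05. Across the 56 genes, which share libraries and are not independent, the log2 fold change had a Spearman rho of -0.13 with the mean count and -0.06 with the exon length. Single libraries were often at the end of their group over the list. Mimic replicate 6 was the lowest of the 6 mimic libraries for 28 of the 56 genes and the highest for 0, against 18% and 18.8% of all tested genes, and mimic replicate 5 was the highest for 22 genes, against 16.1% of all tested genes.

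Of the 37 genes called lower, 27 were called under every alternative other than the 1.2-fold minimum, Foxj1, Rfx2, Dnah9, Cfap46 and Tppp3 among them. The other 10 lost the call in at least 1 alternative, and of the 19 genes not called, 7 (Dnah5, Dnah10, Dnah11, Dnah12, Cfap47, Rsph4a and Zmynd10) were called lower in at least 1. Without control replicate 1, 41 genes (73.2%) were called lower beside 13% of all tested genes, with Dnah5, Dnah11, Dnah12, Cfap47 and Rsph4a gained and Cfap100 lost (adjusted p = 0.0719), and the median log2 fold change was -0.34. Without control replicate 3, the highest library for 23 of the 56 genes, 28 (50%) were called lower beside 9.05% of all tested genes, since Dnah1, Dnah7a, Cfap57, Cfap65, Cfap77, Cfap100, Hydin, Ccdc39 and Pifo lost the call (adjusted p from 0.0533 to 0.106).

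Promoters of motile cilium genes were examined because RFX factors bind an X-box and Foxj1 a forkhead motif, both known elements of ciliary promoters, and both Rfx2 and Foxj1 were lower. RefSeq promoters (GRCm38.p6), from 250 bases before to 50 bases after the gene start, were held for 47 of the 56 genes and for 27025 genes in all, and both strands were searched. A full X-box was searched in a strict form only, GTTNCC and GGNAAC with 1 to 3 bases between. This form occurred in 1 of the 47 promoters (2.13%, against 0.9% of all promoters), that of Pifo. Looser forms of the arms were not counted, so X-boxes with a differing base in an arm were missed. The single arm GTTGCC, which is part of many X-boxes and so can overlap them, occurred in 23 of 47 (48.94%) against 14.14% of all promoters. The forkhead motif GTAAACA occurred in 2 of 47 (4.26%) against 4.05%. All promoters here include those of genes not tested in these cultures, and the part of this in the shares was not tested. The single arm was present in 13 of 32 genes called lower (40.62%) and in 10 of 15 genes not called (66.67%).

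The Pifo X-box and single arms in other genes are shown, with the motif in capitals and as read along the strand of the gene, to let the shared arm be seen in genes that were called lower (Pifo, Cfap46, Dynlrb2, Tekt1 and Rfx2) and genes that were not (Rfx3 and Tekt2). They lie at chr3:106001496-106001525 (minus strand), chr7:139683807-139683836 (minus), chr8:116504952-116504981 (plus), chr11:72361880-72361909 (minus), chr17:56831107-56831136 (minus), chr19:28011118-28011147 (minus) and chr4:126325693-126325722 (minus), in that order. GGCAAC is GTTGCC on the other strand. Some single arms have a near match to the other arm beside them, such as AGCAAC in Dynlrb2 and GTTGCT in Tekt2. A match is a description of these letters and not evidence of binding.
Pifo: gcggttccGTTCCCTTGGCAACgtagtaca
Cfap46: gccccgtctctaGGCAACcgctactggtcc
Dynlrb2: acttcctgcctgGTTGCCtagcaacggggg
Tekt1: tgcgtccgtccgGTTGCCatagagaccgca
Rfx2: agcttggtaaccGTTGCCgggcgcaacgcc
Rfx3: gttatagcaaccGTTGCCttgtgaatcaag
Tekt2: gggcggttgctcGGCAACcagagccgcaaa

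Many motile cilium genes outside the list were called lower as well. Of 83 such genes tested, 46 were called lower (55.4%) and 2 higher (2.41%), beside 10.7% and 11.5% of all tested genes. Their median log2 fold change was -0.27, and 4 more, Pih1d3, Rsph6a, Sntn and Tekt3, were too scarce to test. The largest decreases among genes with at least 50 mean counts were those of Morn5 (-0.74, adjusted p = 1.03e-05) and Cfap161 (-0.59, adjusted p = 7.8e-05). Ccdc63, a relative of the docking complex gene Ccdc114, was higher (0.62, adjusted p = 2.57e-05), at 1.77 to 2.16 CPM in control and 2.78 to 3.27 CPM in mimic. Cfap20 was the other gene called higher (0.13, adjusted p = 0.00929).

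Of the genes that make the many basal bodies of multiciliated cells, 78.9% were not called, a share close to the 77.8% of all tested genes. Of 19 centriole amplification genes, 1 was called lower (5.26%) and 3 higher (15.8%), beside the 10.7% and 11.5% of all tested genes, with a median log2 fold change of -0.02. The genes called higher were Stil (0.68, adjusted p = 1.62e-06), Plk4 (0.63, adjusted p = 1.91e-06) and Cep152 (0.19, adjusted p = 0.0484), which also serve centriole duplication in dividing cells, and Cep164, a distal appendage protein, was called lower (-0.16, adjusted p = 0.0225). Gmnc, which acts upstream of Mcidas, had a log2 fold change of -0.61 (adjusted p = 0.0506), and was called lower without control replicate 1 (-0.73, adjusted p = 0.00286). Without that library 4 genes of the list were called lower (Gmnc, Myb, Cetn4 and Cep164) and 3 higher, with Ccdc78 in place of Cep152 (adjusted p = 0.0582), where 13% and 14.3% of all tested genes were called.

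Primary cilium and intraflagellar transport genes, of use to most cells, had a median between those of the motile cilium genes and of all tested genes. Of 66 genes, 19 were called lower (28.8%) and 5 higher (7.58%), beside 10.7% and 11.5% of all tested genes, with a median log2 fold change of -0.09. Ift43, a transport subunit, was lower (-0.39, adjusted p = 0.000804), whereas Smo (0.48, adjusted p = 2.3e-05) and Ptch1 (0.32, adjusted p = 0.000135), which receive the hedgehog signal at the cilium, were higher. This count depended on single libraries. Without mimic replicate 2 it was 10 (15.2%, beside 9.27% of all tested genes), and without control replicate 1 it was 27 (40.9%, beside 13%).

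**Figure D4:**
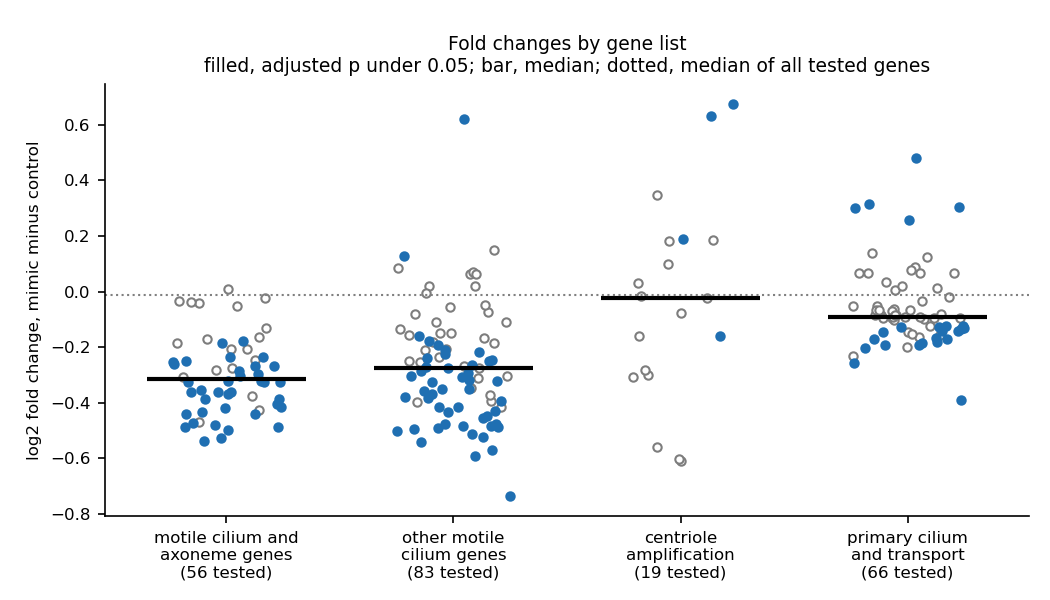
Log2 fold change, mimic minus control, of each tested gene in 4 lists, with the median of each list as a bar and the median of all tested genes (-0.01) as a dotted line. The medians were -0.31 for the 56 motile cilium and axoneme genes, -0.27 for other motile cilium genes, -0.02 for centriole amplification genes and -0.09 for primary cilium genes, and filled points have an adjusted p under 0.05.

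Markers of the cells that could bear motile cilia, and of the other cells of the culture, are given beside the 10.7% of all tested genes called lower and the 11.5% called higher. Of 10 ependymal markers outside the axoneme, 3 (30%) were called lower (Cd24a, Cdhr3 and Nnat) and 1 higher (S100b, also on the astrocyte list), and their sum was 1987 to 2107 CPM in control and 1713 to 1918 CPM in mimic, without overlap. Nnat alone, a gene neurons express as well, made up 68.6% of the control sum, and the sum of the other 9 markers overlapped between groups, at 529 to 693 CPM in control and 500 to 598 CPM in mimic. The 6 remaining markers were not called. Without control replicate 1, which held the 529 CPM, Aqp4 was called lower as well (-0.21, adjusted p = 0.0406). That made 4 of the 10 ependymal markers (40%), beside 13% of all tested genes. Of 15 choroid plexus markers, 2 (13.3%) were called lower, Folr1 (-0.59, adjusted p = 0.00606) and Calml4 (-0.44, adjusted p = 0.00183), and 1 (6.67%) higher (Kl), and their sum was 312 to 519 CPM in control and 278 to 456 CPM in mimic. Without control replicate 1, whose sum was the lowest of the controls, the other control libraries summed to 364 to 519 CPM, and 5 markers (33.3%) were called lower, with Otx2, Slc4a5 and Kcnj13 added, beside 13% of all tested genes. Ttr, the defining transcript of the choroid plexus and 73.8% of the control sum, ran from 205 to 399 CPM in control and from 180 to 341 CPM in mimic (-0.43, adjusted p = 0.143, and -0.53 without control replicate 1, adjusted p = 0.0629). No marker of these 2 lists was at 0 in all libraries.

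Among the other markers, 1 of 12 astrocyte genes was called lower (Gfap, -0.90) and 9 higher (75.0%), with a sum of 5807 to 6470 CPM in control and 7211 to 7644 CPM in mimic. Without control replicate 1, 2 astrocyte genes were called lower (16.7%, with Aqp4 added) and the share called higher stayed at 75.0%. Oligodendrocyte lineage genes were called lower for 1 and higher for 5 of 10 (429 to 724 CPM and 810 to 1003 CPM). The 724 CPM was control replicate 1 alone, the other 5 control libraries summed to 429 to 459 CPM, and without it 2 of these genes were called lower and 6 higher (beside 13% and 14.3% of all tested genes). Olig1 alone made up 75.3% of the control sum. Radial glia genes were called lower for 2 and higher for 7 of 12 (2202 to 2384 CPM and 2157 to 2333 CPM). Neuron genes were called lower for 5 and higher for 1 of 15 (8884 to 9726 CPM and 8751 to 9154 CPM), microglia genes for 2 and 0 of 10 (23.4 to 27.0 CPM and 22.1 to 34.1 CPM), and fibroblast and vascular genes for 3 and 0 of 11 tested of 12 (267 to 335 CPM and 139 to 273 CPM), where Cldn5 was too scarce to test. Without mimic replicate 2, 1 microglia gene was called lower (10%), beside 9.27% of all tested genes. The part of these shifts in the decrease of motile cilium genes was not tested.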

How the data were processed

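The data are raw counts per gene from 12 libraries (TruSeq, 50 bp single-end reads). Per the labels, the authors checked reads with FastQC 0.11.5 and used STAR 2.5.2b and featureCounts of Subread 1.5.1 with build mm10 to make the deposited counts. A deposited series table of normalised values, with 12 per-sample columns, was not used. Groups came from the sample titles. Symbols came from GENCODE M21 (Cfap47 by a RefSeq synonym of Gm7173). Each gene with 5 or more counts in 6 or more libraries was tested with edgeR 4.0.16 (R 4.3.3, TMM, robust quasi-likelihood), and p-values were adjusted by Benjamini-Hochberg over all 18847 tested genes. The code was tested on simulated counts. Replicates differed by more than sampling noise. Alternatives were DESeq2 1.42.0, its size factors, other filters, a minimum fold change, a replicate block and leaving out each library. The 56 genes and the other lists were chosen with earlier results of these data known. Named genes were the 5 regulators and, per role, the called genes with the largest changes at a mean of at least 50 counts (up to 5 dynein arm, 2 radial spoke and 8 other axoneme genes) plus the gene with the highest level per length. In other lists up to 3 such genes were named, and other genes with values are named to account for each list member or to complete short counts.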

Additional observations from a re-analysis of the deposited data

Results flagged for a closer look

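Over 50 groups of 6 values (21 named genes and the sums of the 4 roles, in each group), 5 held a library whose gap to its nearest neighbour as a share of the whole range exceeded Dixon's critical value for groups of 6. Chance alone flags about 1 in 20 such groups, or 2.5 here, and the 5 are not independent, since all concern control replicate 1 as the lowest control library. It measured 16.2 CPM for Dnah6 (other control libraries 22.8 to 26.0), 14.2 CPM for Iqcg (19.4 to 21.7), 6.97 CPM for Cfap45 (8.03 to 8.57), 7.47 CPM for Tekt1 (8.23 to 8.62) and 362 CPM for the sum of the other axoneme genes (419 to 450). This library was also the shallowest, at 20018234 counts, and the part of depth in these values was not tested. Leaving it out made the log2 fold changes of Dnah6 (-0.52) and Iqcg (-0.56) larger in size.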

How the results depend on the processing

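The count of 37 motile cilium genes called lower ran from 28 to 41 when single libraries were left out, and was 36 with the DESeq2 Wald test, 37 with DESeq2 size factors, 33 without a filter on low counts and 38 with a mean of at least 50 counts. It fell to 7 (12.5% of the 56) when a change of more than 1.2-fold was required, which asks for a larger difference by construction and was met downwards by 1.87% of all tested genes. These 7 were among the 18 named genes otherwise called lower. The median of -0.31 stayed between -0.35 and -0.28 in all alternatives, and was -0.31 over the 28 genes that share no exon bases or 50-base windows with other genes. Of 356 alternative values of the 21 named genes outside the 1.2-fold minimum, 355 stayed on the same side of the threshold, the exception being Cfap69 without a filter (adjusted p = 0.0588). Primary cilium genes called lower, 19, ranged from 10 to 27 when single libraries were left out. Same-numbered control and mimic libraries did not deviate together (correlations from -0.04 to 0.09, and 0 libraries of 6 matched best with their own number). With the replicate number as a block, 35 motile cilium genes and 12 primary cilium genes were called lower, and the cause of the change in the latter count was not tested. The scarcest genes, such as Mcidas, limit what could be resolved.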
